A study of Homo sapiens with 2 samples.

Results

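Forkhead (FOX) genes code for transcription factors that share 1 DNA-binding fold, and their RNA levels were read in 2 RNA-seq libraries of HEK293T cells. The members were all genes whose symbol consisted of FOX, a subfamily letter from A to S, a number and at most 1 further letter. This gave 47 of the 60664 genes counted, spread over 19 subfamilies. Of the 47, 45 were typed as protein-coding, and the other 2, FOXO1B and FOXO3B, as processed pseudogenes. The rule used symbols alone and no measured value, but it was chosen with earlier results of these data known.

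HEK293T is a human embryonic kidney line carrying adenoviral genes and the SV40 large T antigen. Both libraries were labelled as wild type and untreated, so the series held 1 group of 2 replicates and no contrast between conditions. For replicate 2 the cell line entry read HEK294T whereas its own title read HEK293T. The libraries held 18011638 counts in replicate 1 and 18575058 in replicate 2. The labels do not state whether each replicate was its own culture, and the spread over replicates may therefore be technical. No p-value was computed: levels are given for each library, with the SD over n = 2. The viral genes that define the line were not analysed here.

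The forkhead domain is a winged helix, in which a recognition helix lies in the major groove and reads a short motif. Members of the FOXA subfamily can bind their sites in closed chromatin, FOXO factors are held in the cytoplasm by growth factor signalling, and FOXM1 drives genes needed for mitosis. Many others mark single lineages, among them FOXN1 in the thymus and FOXJ1 in cells with motile cilia. In kidney, FOXD1 marks the stroma of the mouse embryo, FOXC2 podocytes and FOXI1 intercalated cells.

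The part of the coding sequence that defines the family is shown first, because it is the stretch the genes share. A run of 60 bases for the recognition helix and the residues after it was placed in 46 of the 47 genes, all but FOXR2. In coding genes it was located by a fixed pattern of amino acids, and this search gave no stretch in FOXR2. In the pseudogenes FOXO1B and FOXO3B, which have no annotated coding sequence, it is the run most like that of the parent gene. The bases below are from GENCODE 29 transcripts on GRCh38, read 5′ to 3′ in the direction of the gene, and capitals mark each base that differs from FOXC1, the most abundant member. The FOXC1 stretch lies in its coding exon at chr6:1610809-1610868 on the plus strand.
FOXC1: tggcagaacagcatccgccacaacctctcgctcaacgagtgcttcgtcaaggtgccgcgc
FOXC2: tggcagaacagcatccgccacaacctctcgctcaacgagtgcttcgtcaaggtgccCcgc
FOXD1: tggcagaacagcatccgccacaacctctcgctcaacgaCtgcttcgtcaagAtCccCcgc
FOXF2: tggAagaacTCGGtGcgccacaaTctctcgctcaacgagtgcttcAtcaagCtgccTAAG
FOXK2: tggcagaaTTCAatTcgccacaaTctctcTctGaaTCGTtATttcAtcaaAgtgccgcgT
FOXN3: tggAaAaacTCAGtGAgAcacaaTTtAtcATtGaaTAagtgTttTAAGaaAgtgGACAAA
FOXO1: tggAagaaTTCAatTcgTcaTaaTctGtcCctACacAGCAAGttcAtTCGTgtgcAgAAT
FOXO3: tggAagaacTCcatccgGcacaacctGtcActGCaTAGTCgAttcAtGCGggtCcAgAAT
FOXO3B: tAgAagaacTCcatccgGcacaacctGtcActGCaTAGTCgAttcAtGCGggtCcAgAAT
Over the other 45 members with the stretch, between 23 and 59 of the 60 bases equalled those of FOXC1, with a median of 48. The lowest was the pseudogene FOXO1B at 23, and the lowest coding member was FOXP2 at 30. FOXC2 differed from FOXC1 at 1 base and shared 59, and FOXD1 shared 56. FOXN3 shared 31 and FOXO1 32. The pseudogene FOXO3B equalled its parent FOXO3 at 59 of 60 bases, a likeness that the search for its stretch favoured.

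A gene was called detected when it reached at least 1 CPM (a count scaled to the library total) in both libraries. By this rule 29 of the 47 forkhead genes were detected, or 61.7%, and 28 of the 45 protein-coding ones, or 62.2%. The same rule called 65.9% of all 19890 protein-coding genes and 27.7% of all genes in the table. The forkhead share was thus close to the protein-coding background. It stayed so with other rules: 32 forkhead genes were detected at 0.5 CPM or at 10 counts in both libraries, against 69.1% of protein-coding genes by either rule, and 27 at 1 TPM, against 60.3%. In bulk RNA, few cells with an RNA and little of it in each cell cannot be told apart. Of the other 18 members, FOXC2, FOXI3, FOXL1, FOXO6 and FOXQ1 passed 1 CPM in 1 library only, and 7 had counts below 1 CPM in both. The remaining 6 were at 0 in both libraries: FOXI1, FOXI2, FOXL3 (a switch of germ-cell sex in medaka fish), FOXN1, FOXR2 and FOXS1. A count of 0 allowed up to 0.167 CPM in replicate 1 and up to 0.162 CPM in replicate 2, taking 3 counts as the floor. These floors, and the intervals given below, cover counting error only.

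Detected members came from 14 of the 19 subfamilies. Subfamilies D, F, K and P had all of their members detected, 4 of 4, 2 of 2, 2 of 2 and 4 of 4. H and M have 1 member each, and both were detected. No member of I, L, Q, R or S passed the rule.

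Levels between genes were compared in TPM, which divides counts by the exon length of the gene before scaling each library to the same total. The median over the 47 forkhead genes was 1.49 TPM, and it was 2.03 TPM over the 45 protein-coding ones, against 2.88 TPM over all protein-coding genes. Among detected genes the medians were 3.56 TPM for forkhead genes and 8.52 TPM for protein-coding genes. All forkhead genes together took 12129 counts in replicate 1 and 11016 in replicate 2, which is 0.0673% and 0.0593% of each library. By the same rule the SOX family had 11 of 19 genes detected with a median of 1.25 TPM, and the HOX family 36 of 39 with a median of 12.3 TPM. No HOX gene was at 0 in both libraries, compared with 4 SOX genes.

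**Figure D1:**
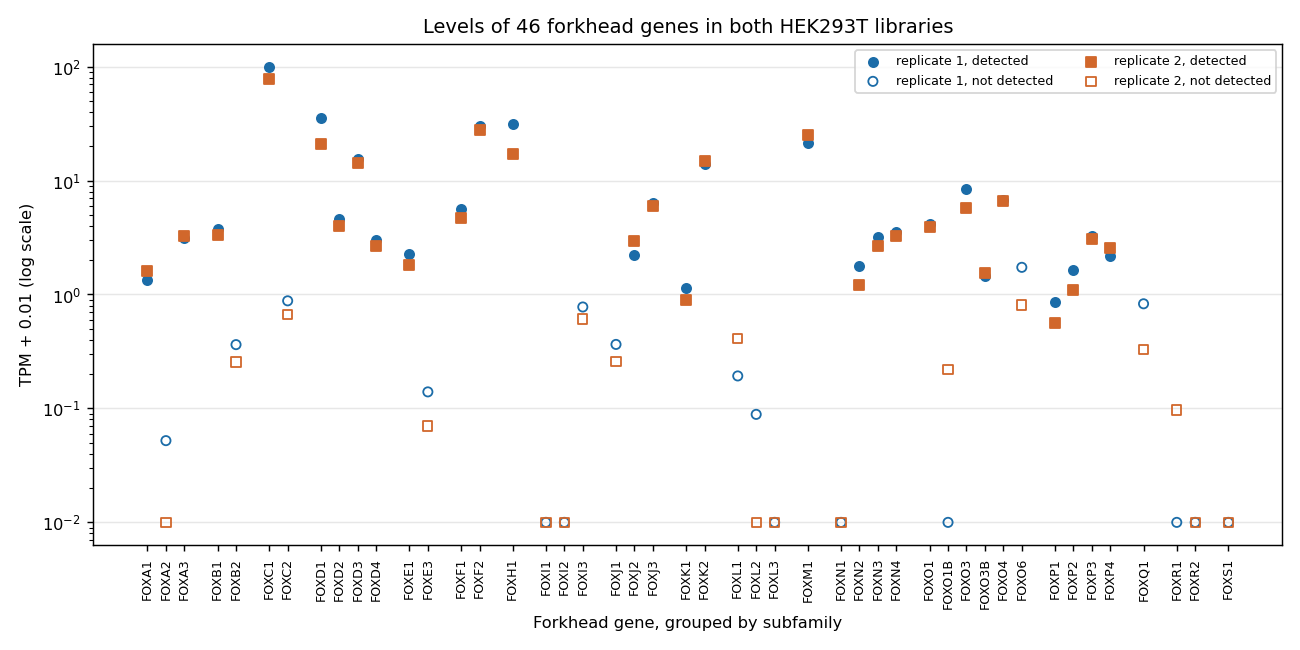
Level of 46 of the 47 forkhead genes in TPM + 0.01 on a log scale, ordered by subfamily, with replicate 1 as circles and replicate 2 as squares; filled symbols are genes at 1 CPM or more in both libraries. FOXC1 stands above all others at 99.6 and 78.0 TPM, and 6 genes sit at the bottom with no counts.

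FOXC1, which patterns the anterior segment of the eye and is mutated in Axenfeld-Rieger syndrome, was the most abundant forkhead RNA. It had 3462 counts in replicate 1 and 2920 in replicate 2, or 99.6 and 78.0 TPM, with a mean of 88.8 ± 15.3 TPM (SD, n = 2). In CPM this was 192 (95% Clopper-Pearson interval 185.86 to 198.72) in replicate 1 and 157 (151.55 to 163.007) in replicate 2, and these intervals did not overlap. The level exceeded that of 94.7% of protein-coding genes. FOXC1 alone made up 29.5% and 28.5% of the summed forkhead TPM in replicates 1 and 2, and the 5 most abundant members 64.6% and 61.7%. Its closest relative FOXC2, needed for lymphatic vessels and podocytes, had 22 counts in replicate 1 and 18 in replicate 2, at 0.765 ± 0.148 TPM. FOXC2 passed 1 CPM in replicate 1 and not in replicate 2.

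The FOXF genes act in the mesenchyme of gut and lung. FOXF2 had 642 and 641 counts, or 30.0 TPM in replicate 1 and 27.8 TPM in replicate 2. FOXF1 had 174 and 154 counts, or 5.67 and 4.66 TPM. Both FOXF2 values lay above both FOXF1 values.

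Several of these genes lie side by side. FOXQ1, FOXF2 and FOXC1 are neighbours on the plus strand of the short arm of chromosome 6, with FOXQ1 at chr6:1312098-1314758, FOXF2 at chr6:1389576-1395603 and FOXC1 at chr6:1609915-1613897. The gaps are 74.8 kb between FOXQ1 and FOXF2 and 214 kb between FOXF2 and FOXC1. FOXQ1, which controls hair structure in the mouse, had 19 and 8 counts, or 0.569 ± 0.353 TPM, while FOXC1 and FOXF2 headed the order of members by mean TPM. On chromosome 16, FOXF1 at chr16:86510527-86515422 is followed by FOXC2 after 51.4 kb and by FOXL1, a gene of the gut mesenchyme, after a further 6.64 kb. There FOXF1 was detected at 5.16 ± 0.714 TPM, and FOXC2 and FOXL1 were not, FOXL1 having 8 counts in replicate 1 and 19 in replicate 2. On chromosome 1, the lens gene FOXE3 had 2 counts in replicate 1 and 1 in replicate 2, while FOXD2, 20.0 kb away, had 105 and 99. Detection therefore differed between neighbours in each of the 3 clusters.

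The 4 FOXD genes were all detected, and 2 of them were among the higher members. FOXD1 had 892 counts in replicate 1 and 560 in replicate 2, or 35.7 and 20.8 TPM. FOXD3, a factor of neural crest and pluripotent cells, had 346 and 341 counts, or 15.5 and 14.2 TPM. FOXD2 was at 4.55 and 3.98 TPM, and FOXD4 at 2.99 and 2.68 TPM. With the length of its longest annotated transcript FOXD2 had a mean of 1.86 TPM in place of 4.26 TPM. The FOXD1 libraries spread widely, and both values exceeded both of FOXD3 as counted, although each gene shares bases with an antisense gene. FOXD4 is uncertain, since 63.1% of its runs of 50 bases recur in other genes, most of all in the FOXD4-like copies. The copies had fewer counts than FOXD4 (57 and 55): FOXD4L1 had 20 and 11, FOXD4L3 4 and 5, FOXD4L4 2 and 2, FOXD4L6 3 and 0, and FOXD4L5 none.

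The FOXD1 value also depends on a gene on the other strand. FOXD1-AS1 lies wholly inside the exons of FOXD1 (chr5:73444827-73448777) and covers 424 bases, or 14.8% of them. It had 596 counts in replicate 1 and 290 in replicate 2. If a read in both genes was given to both, those are 66.8% and 51.8% of FOXD1's counts. The rest of FOXD1 then had 296 and 270 counts, and its level was 12.8 ± 1.51 TPM in place of 28.3 ± 10.5 TPM. Per kb, the enclosed part held 1406 and 684 counts, against 121 and 111 in the rest of the exons. The table holds 837 such pairs of genes on opposite strands. The enclosed gene had counts in 523 of them in replicate 1 and in 532 in replicate 2, and in 0 did it exceed the gene around it in either replicate, so in such pairs the strand a read came from cannot be told apart.

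Similar pairs were found for other detected members, with smaller effects. MIR6720 inside FOXF2 had 55 and 68 counts, leaving FOXF2 at 27.3 TPM. In FOXK2 the gene ENSG00000261845 had 220 and 241 counts, leaving 13.6 TPM. In FOXN3 the gene ENSG00000277801 had 111 and 104 counts, about 36.2% and 37.1% of those of FOXN3, leaving 2.00 TPM. FOXH1 was the only member with 25% or more of its exonic bases shared: 39.2% lie in KIFC2 on the opposite strand, which had 1584 and 1567 counts. FOXM1 shares 15.9% of its exonic bases with ITFG2 (768 and 796 counts), and FOXD3 shares 179 bases with FOXD3-AS1 (813 and 797 counts). FOXP3 shares 22.4% with several genes. The largest part, 19.7%, lies in ENSG00000286181 on the same strand (44 and 67 counts, with 87 and 89 for FOXP3). Smaller parts lie in PPP1R3F (134 and 123 counts) and CCDC22 (623 and 632 counts). FOXO1 shares 22.7% with ENSG00000288542 (23 and 25 counts). Smaller shares were those of FOXP1 with ENSG00000285708 (7.29% of its exonic bases, 63 and 68 counts), of FOXO3B with ZNF286B (5.54%, 62 and 61 counts) and of FOXA1 with TTC6 (16 bases, 9 and 11 counts). In all, 15 of the 47 members share exonic bases with another gene.

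**Figure D2:**
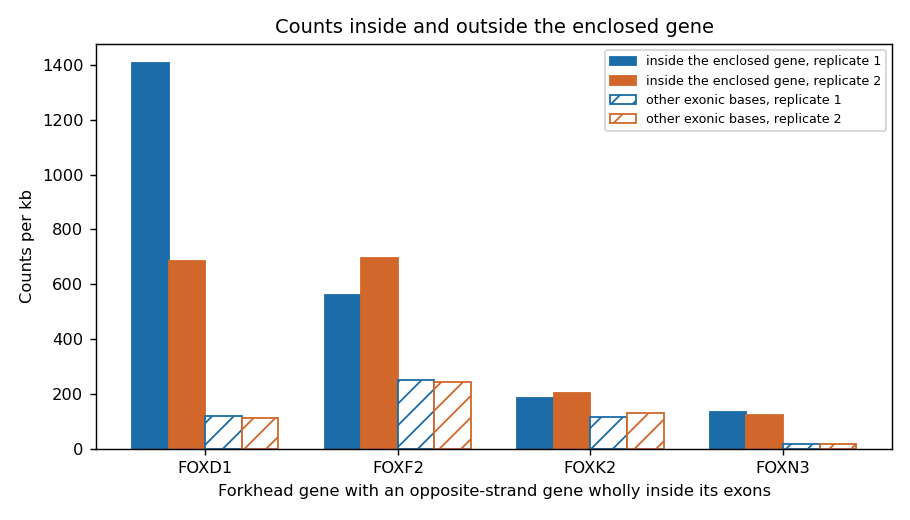
Counts per kb in each library inside the enclosed opposite-strand gene (filled) and over the other exonic bases (hatched) of FOXD1, FOXF2, FOXK2 and FOXN3. For FOXD1 the enclosed part holds 1406 and 684 counts per kb and the rest 121 and 111.

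FOXM1 and FOXH1 followed in the order. FOXM1, the factor of the G2 and mitotic programme, had 922 and 1167 counts, or 21.5 and 25.3 TPM. Its log2 ratio of replicate 2 over replicate 1 was 0.33. FOXH1, which carries SMAD complexes to nodal and activin targets, had 548 and 324 counts, or 31.1 and 17.1 TPM. With the length of its longest annotated transcript its mean of 24.1 TPM became 15.0 TPM. The ranges of FOXM1 and FOXH1 overlapped.

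The FOXK genes, repressors of starvation and autophagy genes, differed widely. FOXK2 had 1225 and 1403 counts, or 14.1 and 15.0 TPM, whereas FOXK1 had 129 and 108 counts, or 1.13 and 0.877 TPM. In CPM, which does not correct for length, FOXK2 ranked 2 among the members at 71.8 CPM, and FOXM1 ranked 3 at 57.0 CPM.

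Of the FOXO genes, the effectors of insulin and stress signalling, 3 coding members were detected. FOXO3 had 563 and 417 counts, or 8.42 and 5.79 TPM. FOXO4 had 6.75 and 6.54 TPM, and FOXO1 4.18 and 3.88 TPM. FOXO6, known from brain, had 36 and 18 counts and passed the rule in replicate 1 alone. The levels of FOXO3 and FOXO4 overlapped, and both exceeded FOXO1. Summed over FOXO1, FOXO3, FOXO4 and FOXO6 the level was 21.1 TPM in replicate 1 and 17.0 TPM in replicate 2. The pseudogene FOXO3B had 79 and 89 counts, or 1.45 and 1.52 TPM, and a mean of 3.71 TPM with the length of its longest annotated transcript. Of its 1879 runs of 50 bases, 1206 or 64.2% also occur in FOXO3, so counts of either gene may hold reads of the other. FOXO1B had 0 and 3 counts.

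The FOXP genes, which repress together with histone deacetylases, were all detected, at 3.23 TPM or less in each library. FOXP3, the factor of regulatory T cells, had 87 and 89 counts, or 3.23 and 3.07 TPM. How many of these counts are reads of genes that share its exonic bases was not tested. FOXP4 had 2.18 and 2.55 TPM, and FOXP2, known from speech and motor circuits, 1.64 and 1.09 TPM. FOXP1 was the lowest detected member, at 0.846 and 0.553 TPM. It had 257 and 181 counts, but its deposited exon length is 34819 bases. With the length of its longest annotated transcript FOXP1 was at 2.09 TPM and no longer the lowest, and FOXP2 was at 2.07 TPM.

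In the FOXN subfamily, FOXN4, which directs retinal interneurons in the mouse, had 108 and 107 counts, or 3.50 and 3.22 TPM. FOXN3, a repressor tied to the cell-cycle checkpoint, had 3.16 and 2.67 TPM, and FOXN2 1.78 and 1.20 TPM. FOXN1, lost in the hairless and athymic nude mouse, was at 0. FOXJ3 had 381 and 385 counts, or 6.33 and 5.94 TPM, and FOXJ2 2.22 and 2.92 TPM. FOXJ1, the factor of motile cilia, had 8 and 6 counts and was below 1 CPM in both libraries.

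Of the liver pioneers, FOXA3 lay just above the median of all protein-coding genes, 2.88 TPM, and FOXA1 and FOXA2 lay below it. FOXA3 had 58 and 65 counts, or 3.13 and 3.25 TPM, and FOXA1 1.32 and 1.59 TPM. FOXA2 had 1 count in replicate 1 and 0 in replicate 2. FOXB1, a gene of the diencephalon in the mouse, had 119 and 113 counts, or 3.78 and 3.34 TPM, while FOXB2 had 4 and 3 counts. FOXE1, the thyroid factor, had 69 and 59 counts, or 2.27 and 1.80 TPM. The ovarian factor FOXL2 had 2 and 0 counts. FOXI3, which acts in tooth and hair in the dog, had 19 and 16 counts, and FOXR1 had 0 and 1. For the genes at 0, the floor of 3 counts corresponds to a level between 0.0945 TPM (FOXN1) and 0.316 TPM (FOXL3) in replicate 1, and between 0.0877 and 0.294 TPM in replicate 2.

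When the 29 detected genes were put in order of mean TPM, 18 of the 28 neighbouring pairs had overlapping library values and 10 did not. FOXC1 stood apart from FOXF2 below it. FOXF2, FOXD1, FOXH1 and FOXM1, at means of 28.9, 28.3, 24.1 and 23.4 TPM, overlapped from each to the next, and FOXM1 stood apart from FOXD3 at 14.8 TPM. FOXD3 overlapped FOXK2 at 14.5 TPM, and FOXK2 lay above FOXO3 at 7.10 TPM in both libraries. The place of FOXD1 holds only with the counts of FOXD1-AS1 included. In all, 8 members were at 10 TPM or more. At the lower end FOXK1 stood apart from FOXP1. With the length of the longest annotated transcript that order was reversed, FOXP1 being at 2.09 TPM and FOXK1 at 0.907 TPM.

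The replicates were then compared gene by gene. At mean counts of at least 50, 0 of 29 forkhead genes were lower and 0 were higher in replicate 2 than in replicate 1 by 1 on the log2 scale. The same rule called 1.92% of the 14704 genes lower and 0.143% higher. At 0.5 on the log2 scale, 4 forkhead genes were lower and 0 higher, against 8.84% and 2.86% of all genes. Among the 4 were FOXH1 at -0.77, FOXD1 at -0.68 and FOXP1 at -0.51. With ratios centred on transcript GC content, FOXH1 was at -0.87, FOXD1 at -0.76 and FOXP1 at -0.36, so FOXP1 no longer passed. FOXJ2 had the highest ratio, 0.48. With lower limits on the mean count, genes with few counts entered. At a mean count of 10 or more FOXQ1 was lower at -1.08 and FOXL1 higher at 1.06, against 2.95% of genes lower and 1.12% higher. With no limit FOXL2, with 2 counts in replicate 1 and 0 in replicate 2, was also called lower, and FOXO1B, with 0 and 3 counts, higher, against 3.72% of genes lower and 1.93% higher. In total 19 of the 29 ratios were below 0, with a median of -0.06, and the median over all genes was 0.00. The FOXD1 counts outside FOXD1-AS1 had a ratio of -0.15, and those of FOXD1-AS1 itself -1.05.

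**Figure D3:**
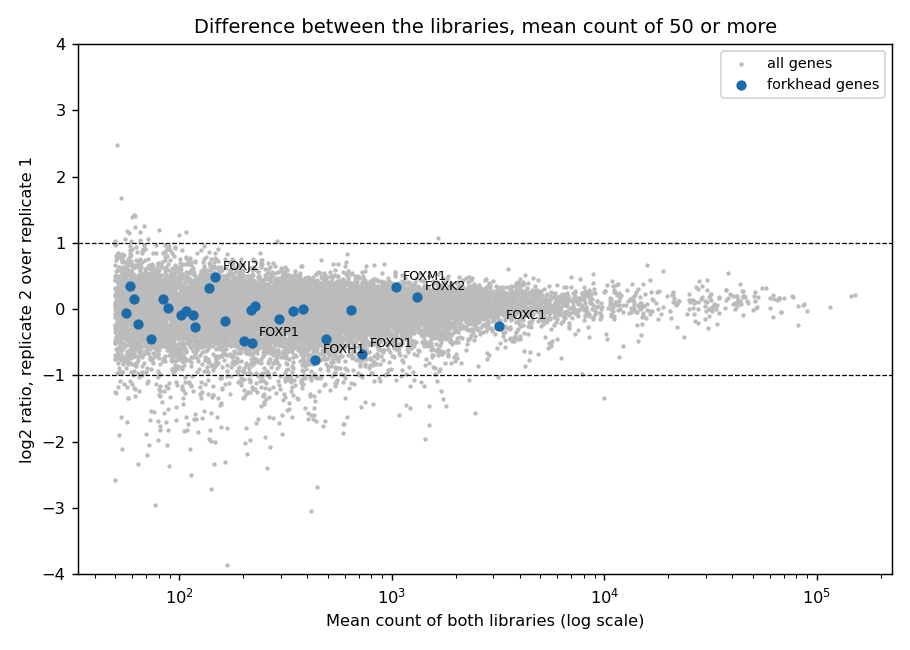
Log2 ratio of replicate 2 over replicate 1 against the mean count on a log scale for genes at mean counts of at least 50, with 28 of the 29 forkhead genes in blue, all other genes in grey and dashed lines at a 1 log2 difference. The 28 forkhead genes drawn lie between the lines, from FOXH1 at -0.77 to FOXJ2 at 0.48.

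Sequence upstream of the start was available for 35 of the 47 genes, as the 250 bases before the transcript start that lies furthest upstream in RefSeq (GRCh38.p14). Shown are the 2 most abundant members with an entry and, beside them, 2 members with no counts at either end of CpG content. Capitals mark each CpG, the site of DNA methylation in promoters.
FOXC1: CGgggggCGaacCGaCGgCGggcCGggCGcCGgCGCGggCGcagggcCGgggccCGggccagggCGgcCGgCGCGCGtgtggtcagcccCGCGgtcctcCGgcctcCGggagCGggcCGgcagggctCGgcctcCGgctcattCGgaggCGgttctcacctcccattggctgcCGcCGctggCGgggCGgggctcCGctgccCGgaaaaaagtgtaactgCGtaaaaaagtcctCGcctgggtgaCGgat
FOXF2: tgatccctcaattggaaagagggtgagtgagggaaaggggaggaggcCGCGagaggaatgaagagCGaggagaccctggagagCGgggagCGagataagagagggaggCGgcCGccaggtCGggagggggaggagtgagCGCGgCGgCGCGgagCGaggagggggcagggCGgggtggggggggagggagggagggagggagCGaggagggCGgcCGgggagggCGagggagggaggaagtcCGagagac
FOXL3: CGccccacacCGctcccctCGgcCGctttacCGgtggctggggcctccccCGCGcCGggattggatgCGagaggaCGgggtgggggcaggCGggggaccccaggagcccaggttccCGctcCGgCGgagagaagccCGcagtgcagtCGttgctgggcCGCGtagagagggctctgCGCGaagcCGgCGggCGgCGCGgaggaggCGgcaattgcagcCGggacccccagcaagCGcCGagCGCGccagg
FOXR2: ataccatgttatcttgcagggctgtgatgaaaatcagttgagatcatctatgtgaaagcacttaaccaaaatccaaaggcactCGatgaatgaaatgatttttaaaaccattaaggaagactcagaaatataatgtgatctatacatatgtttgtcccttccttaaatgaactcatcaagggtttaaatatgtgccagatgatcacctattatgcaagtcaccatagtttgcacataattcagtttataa
These windows are at chr6:1609665-1609914, chr6:1389326-1389575, chr7:289920-290169 and chrX:55623150-55623399, in the order shown and all on the plus strand. FOXC1 has 37 CpG, FOXF2 20, FOXL3 31 and FOXR2 1. Over the 24 detected forkhead genes with an entry the median was 24 CpG, and over the 11 not detected it was 19. For protein-coding genes the medians were 21 CpG for 10375 detected and 5 for 4926 not detected. FOXL3 had more CpG than the median of the detected members, but no counts. FOXP2 was detected with 0 CpG in its window. That window, at chr7:114414565-114414814, lies inside the gene as counted, which begins at chr7:114086327. The windows of FOXA1, FOXA3, FOXP1 and FOXP3 also lie inside their genes as counted. Which start the cells used was not tested.

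The forkhead motif TGTTTAC, read on both strands (its reverse complement is GTAAACA), was in 0 of the 35 windows. It was in 357 of 15301 windows of protein-coding genes, or 2.33%. The absence says only that these letters are not in these windows.

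**Figure D4:**
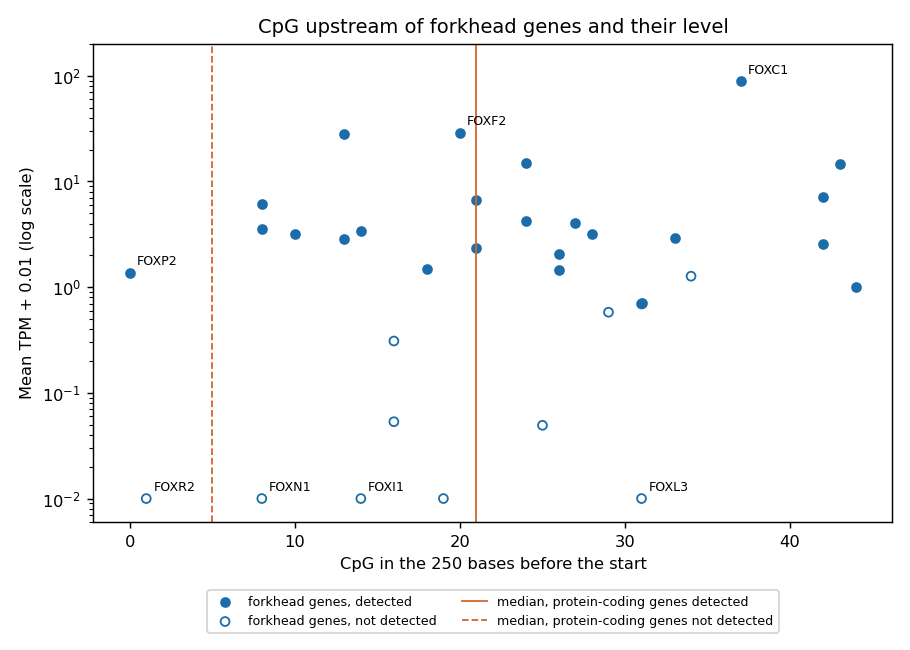
CpG in the 250 bases before the start against mean TPM + 0.01 on a log scale for 35 forkhead genes, with filled points for those detected and open points for those not; lines mark the median of protein-coding genes detected (21, solid) and not detected (5, dashed). FOXL3 has 31 CpG and no counts. FOXP2 was detected and has 0 CpG, in a window that lies inside the gene as counted.

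Genes known to work with forkhead factors were read from 17 lists holding 147 distinct genes, of which 100 or 68.0% were detected, close to the 65.9% of all protein-coding genes. The lists of factors that control or partner the common members were detected almost in full. Of 23 regulators of FOXO, 22 were detected with a median of 6.96 TPM. The highest were the 14-3-3 genes YWHAE and YWHAQ, which hold FOXO in the cytoplasm, at 350 ± 4.23 and 218 ± 24.9 TPM, and the lowest the kinase genes PIK3CA at 0.666 and SGK1 at 0.579 TPM. Of 23 matched FOXO targets, 17 were detected with a median of 2.97 TPM. The stress gene GADD45A was at 81.9 ± 2.63 TPM and the cell-death gene BBC3 at 20.9 ± 3.50 TPM, while FASLG and G6PC1 were at 0.

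All 6 MuvB partners of FOXM1 were detected, from MYBL2 at 77.8 ± 1.46 TPM and RBBP4 at 39.0 TPM to LIN37 at 8.88 TPM and LIN54 at 3.97 TPM. Other genes cover 54.0% of the exonic bases of LIN37. All 14 FOXM1 targets were detected with a median of 60.2 TPM, the highest of the 17 lists. They ran from the cyclin-kinase subunit CKS1B at 238 ± 6.58 TPM and cyclin B1 (CCNB1) at 180 ± 5.16 TPM to CENPF at 18.4 and CDC25B at 16.2 TPM. FOXM1 itself, at 23.4 TPM, lay between LIN37 and RBBP4.

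The FOXK and FOXP partners were likewise detected, 6 of 6 in each list, with medians of 8.59 and 27.2 TPM. Among FOXK partners the deubiquitinase gene BAP1 was at 50.6 TPM and OGT at 45.1 TPM, and the corepressor gene SIN3A at 4.50 and ASXL2 at 2.15 TPM were lowest. Among FOXP corepressors HDAC1 was at 152 TPM and MTA1 at 36.3 TPM. CTBP2 was at 16.8 TPM, with 34.3% of its exonic bases shared, and GATAD2B at 2.34 TPM.

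For FOXH1, the 3 SMAD partners were detected, SMAD4 at 3.41 ± 1.42, SMAD3 at 2.95 and SMAD2 at 1.05 TPM. All were below FOXH1 as counted, at 24.1 TPM. Of the exonic bases of FOXH1 39.2% lie in KIFC2, and how many FOXH1 counts are KIFC2 reads was not tested. Of 6 nodal targets 2 were detected, with GSC highest at 10.8 TPM. LEFTY2 had 7 counts in replicate 1 and 1 in replicate 2, and NODAL 3 and 0.

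The lists for lineages were detected in part, and their medians lay between 0 and 2.26 TPM. Over all protein-coding genes 65.9% were detected and the median was 2.88 TPM. Of 13 genes of motile cilia 5 were detected, led by MCIDAS at 4.36 TPM and CCDC39 at 2.48 TPM with 39.3% of its exonic bases shared, and DNAH9 and TEKT1 had no counts. Of 6 genes of intercalated cells 2 were detected, carbonic anhydrase CA2 at 134 ± 36.3 TPM and ATP6V1B1 at 2.97 TPM. Other genes cover 63.1% of the exonic bases of ATP6V1B1. ATP6V1G3 and SLC4A1 were at 0. Of 6 podocyte genes 3 were detected, among them PODXL at 2.60 TPM, while the slit-diaphragm gene NPHS1 had 2 and 3 counts. Of 5 genes of renal stroma 2 were detected, among them MEIS1 at 1.52 TPM, and PDGFRB had 3 and 2 counts. Of the 3 forkhead factors of these kidney lineages, FOXD1 was detected in both libraries, FOXC2 in 1 and FOXI1 in none.

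Outside the kidney, 4 of 9 genes of liver and endoderm were detected, with GATA6 at 10.4 and GATA4 at 6.90 TPM, and AFP and SOX17 at 0. Of 6 telencephalon genes 5 were detected. EMX1 was at 4.60 TPM, LHX2 at 4.02 ± 2.31 TPM and OTX2 at 1.28 TPM, and SIX3 had 13 and 6 counts. LHX2 was lower in replicate 2 than in replicate 1 by more than 1 on the log2 scale. Of 5 granulosa genes AMH at 46.1 ± 14.9 TPM and FST at 1.14 TPM were detected, CYP19A1 had 2 and 3 counts and FSHR none. Of 5 thyroid genes NKX2-1 alone was detected, at 3.90 TPM with 40.7% of its exonic bases shared. TSHR had 2 and 0 counts, and PAX8 1 and 0. Of 5 genes of regulatory T cells 0 were detected beside FOXP3. IKZF2 had 29 and 17 counts, CD4 6 and 3, and CTLA4 and IL2RA none.

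**Figure D5:**
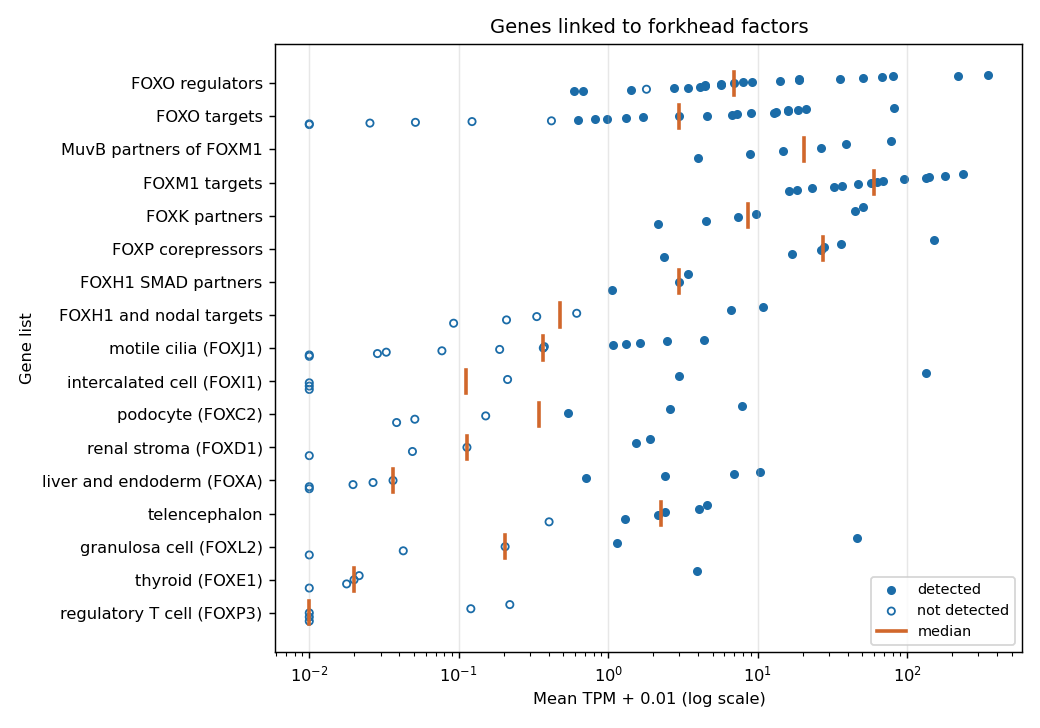
Mean TPM + 0.01 on a log scale for the genes of the 17 lists linked to forkhead factors, with filled points for detected genes, open points for those not detected and a bar at the median of each list. The FOXM1 targets have the highest median, 60.2 TPM, and the list of regulatory T cells the lowest, with 0 of 5 detected.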

How the data were processed

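RNA-seq of 2 untreated HEK293T libraries was used. Per the labels' protocols, total RNA was DNase-treated, cDNA was primed with oligo(dT), which favours RNAs with a poly(A) tail, leftover RNA and primer were digested, and the sheared cDNA went through a single-strand ligation kit. Each deposited file lists 1 library's raw counts by Ensembl gene; the authors had not normalised them, since all values are whole numbers. Demultiplexing (bcl2fastq 2.17), trimming (Trim Galore 0.6.7) and counting (featureCounts 2.0.3) tools are named in the submitters' processing notes, with build GRCh38. The sources used here do not give the aligner, the annotation release or how strand and overlap were handled.

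From the counts, CPM and TPM (over the deposited exon length) were computed. Of 60664 IDs, 60463 matched a symbol and 58396 were in GENCODE 29, which gave types and transcripts. Exon overlap came from bedtools 2.31.1 and copies from shared runs of 50 bases. Ratios between libraries used edgeR 4.0.16 in R 4.3.3 (TMM, prior count 2, mean count of 50 or more), with DESeq2 1.42.0 size factors as an alternative. These steps were checked on simulated data, which for the ratios had less spread between libraries than the 15.6% given below. With 1 group no test was run. The counts of the 2 libraries differed by more than sampling noise: a chi-square comparison gave 12.7 per degree of freedom over 21018 genes, so neither is a copy of the other. The coefficient of variation between the libraries by edgeR, beyond counting noise, was 15.6% over 18315 genes.

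All members enter the counts and medians, but 1 member, some list genes and some sequences are not reported here. Otherwise, from each list the 2 highest and 2 lowest genes by mean TPM are named, along with genes that share exons with a detected member and RNAs named for one. The members and lists were chosen with earlier results of these data known. The FOXO target SOD2 was not matched and is not used here. Alternatives were other detection rules, scalings, count filters, lengths, and each replicate alone. Those added after seeing the data were single replicates for the other families, a call at 0.5 log2, FOXD1 without its enclosed gene, and the start with the most CpG.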

Additional observations from a re-analysis of the deposited data

How the results depend on the processing

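The number of detected forkhead genes was 29 and stayed between 27 and 33 under the alternatives run: 32 at 0.5 CPM or at 10 counts in both libraries (69.1% of protein-coding genes by either rule), 27 at 1 TPM (60.3%), 28 without FOXH1, 29 with TMM scaling, and 30 to 33 with 1 replicate left out. The median level of 1.49 TPM moved to 1.97 TPM with the longest annotated transcript as the length and to 2.03 TPM over the protein-coding members alone, and was 1.59 to 1.78 TPM with 1 replicate left out. With the longest transcript, 19 of 47 members moved by more than their SD, and the order began FOXC1 (69.6 TPM), FOXD1 (27.5), FOXM1 (25.5), FOXF2 (22.3) and FOXK2 (21.2). Among the detected members moved by over 1.5 times were FOXH1 (15.0 TPM), FOXO3B (3.71), FOXP1 (2.09), FOXP2 (2.07) and FOXD2 (1.86). The number of forkhead genes that parted between the libraries by 1 log2 was 0 with DESeq2 size factors, library totals, a minimum of 200 counts or centring on GC content. It was 2 at a mean count of 10 or more (FOXQ1 at -1.08 and FOXL1 at 1.06) and 4 with no filter, when 3.72% of all genes were lower and 1.93% higher; the added call at 0.5 log2 also gave 4. FOXD1 was at 12.8 TPM without its enclosed gene, against 28.3 TPM with it. The linked lists had 100 genes detected, and 100 to 104 with 1 replicate left out. Taking the start with the most CpG gave medians of 25 for detected and 19 for undetected forkhead genes, and 23 and 5 for protein-coding genes. Genes under about 10 counts are set by counting error. No paired analysis was possible because all samples belong to 1 group.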

Other observations

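Further RNAs carry the names of forkhead genes, and several were above their namesake in TPM, though not all of them in counts. FOXD3-AS1 was at 73.7 ± 4.90 TPM (SD, n = 2), with FOXD3 at 14.8 ± 0.929 TPM. FOXD1-AS1, with 596 counts in replicate 1 and 290 in replicate 2, was at 161 and 72.8 TPM over its own short length. FOXP4-AS1 had 41 and 48 counts, or 5.25 ± 0.310 TPM, and FOXN3-AS1 43 and 45 counts, or 4.51 TPM. Their namesakes had more counts but lower TPM: FOXP4 had 122 and 154 counts (2.36 TPM) and FOXN3 307 and 280 (2.91 TPM). FOXD2-AS1 was at 2.55 TPM and FOXF2-DT at 2.07 TPM, both below their namesakes.

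Beside the mesenchymal members, FENDRR starts 1.43 kb from FOXF1 and had 156 and 167 counts, or 2.59 ± 0.0110 TPM. FOXCUT starts 8.26 kb from FOXC1 and had 125 and 145 counts, or 6.37 ± 0.335 TPM, with FOXC1 at 88.8 TPM. FOXC2-AS1 had 1 and 4 counts, FOXP1-DT 15 and 17 and FOXP1-IT1 0 and 2, and none of these passed 1 CPM in both libraries. FOXN3-AS2, FOXO6-AS1, FOXP1-AS1, FOXN3P1 and FOXN3P2 were at 0 in both. FOXD3-AS1 and FOXD1-AS1 share 14.8% and 100% of their exonic bases with the gene they are named for, and whether reads of that gene make up their counts was not tested. For FOXD1-AS1, wholly enclosed by FOXD1, the strand a read came from cannot be told apart.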
